A study of Mus musculus with 3 samples.

Results

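Cytosolic ribosomal protein genes were examined by polyA RNA sequencing in mouse T cells that the labels call naive, thymus-derived, CD4-positive and alpha-beta. Protein-coding genes whose symbols begin with Rpl or Rps and a digit were taken, together with Rplp0, Rplp1, Rplp2, Rpsa and Fau. Genes of the ribosomal S6 kinases, Rps19bp1 and symbols marked "-ps" were left out. The rule gave 86 genes of 55536 in the annotation, of which 78 are the core set (46 of the large subunit and 32 of the small subunit) and 8 are paralogs of core genes. The cells were primary cells of 1 adult male mouse of strain B6.SJL-Ptprca Pepcb/BoyJ, aged 5 months, and the labels name no treatment. The labels number 3 technical libraries, 1 to 3, made from this 1 biological replicate. Each spread and every p-value below therefore describes library-to-library variation within 1 mouse. There is 1 group, so no condition was compared.

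Ribosomes are built from ribosomal RNA and a fixed set of proteins, and one copy of nearly every protein is needed per subunit. The messenger RNAs of these proteins, and of several translation factors, commonly begin with a C followed by a run of pyrimidines, the 5′ terminal oligopyrimidine (TOP) motif. Through this motif the kinase mTOR, with the RNA-binding protein LARP1, sets how well they are translated. Naive T cells are small resting cells that enlarge and raise translation when activated. Mammalian genomes also carry many processed copies of ribosomal protein genes, made by reverse transcription of the messenger RNA, and short reads from a gene and its copies can be indistinguishable.

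The sequences around annotated starts show how the TOP motif looks in members of high and middle level. In the RefSeq promoter table (build GRCm38.p6), 66 of the 86 genes had an entry. A start was called TOP-like when a C followed by at least 5 further C or T began within 10 bases of it on the gene's strand. Of 58 core genes with an entry, 32 (55.2%) had at least 1 such start, against 21.9% of 27025 genes in the table. The literal motif CTTTC, searched on the gene's strand in the same window, was present at 22.1% of 68 core starts and at 3.10% of 32851 starts in all. It can lie inside a longer pyrimidine run. The windows below run from 10 bases before the annotated start to 14 after it, 5′ to 3′, with the pyrimidine run in capitals.
Rps27 (chr3:90213634-90213658, minus strand): cgctttcgCTCCTTTCCggcggtga
Rps18 (chr17:33955651-33955675, minus strand): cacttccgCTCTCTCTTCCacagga
Rplp2 (chr7:141447641-141447665, plus strand): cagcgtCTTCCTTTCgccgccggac
Rps6 (chr4:86857353-86857377, minus strand): gaagtcgggCCTCTTTTTCgtgacg
Rpl15 (chr14:18270972-18270996, minus strand): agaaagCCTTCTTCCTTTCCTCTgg
Fau (chr19:6057937-6057961, plus strand): gcccccaCTTCTTCCTCTTTCTTga
The next windows are from core genes whose annotated start held no such run, shown because 2 of them were among the more abundant members.
Rplp0 (chr5:115559457-115559481, plus strand): cgggtttcgaggaccgcctggttct
Rps25 (chr9:44407704-44407728, plus strand): ccgacatcttagcgaggctgctgtg
Rpl11 (chr4:136053379-136053403, minus strand): ccataaggccacggggccggaagtc
Core genes with a TOP-like start had a median of 548 TPM (transcript abundance corrected for length and scaled to a fixed sum per library), and the 26 without one had a median of 707 TPM. The levels of both sets overlapped widely, from 28.1 to 5508 TPM with such a start and from 36.6 to 2061 TPM without. The 20 core genes with no promoter entry could not be scored and had a higher median, 1047 TPM. A match describes these letters and the annotated start only.

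The data hold 14837442, 18207118 and 17505621 expected counts in libraries 1, 2 and 3. All 8 markers of naive CD4 T cells were above 100 TPM in every library, with summed levels of 10151, 9410 and 10388 TPM. Of the 2 CD8 T cell markers, Cd8a was at 0.14 ± 0.046 TPM (SD, n = 3) and Cd8b1 at 16.77, 16.99 and 17.24 TPM, with sums of 16.95, 17.08 and 17.39 TPM in libraries 1 to 3. The 4 B cell markers summed to 1.72, 3.02 and 2.16 TPM, with Cd79a at 2.06 ± 0.63 TPM and Ms4a1 at 0.13 ± 0.061 TPM (SD, n = 3). The 4 myeloid markers summed to between 1.74 and 1.94 TPM, with Itgam at 1.63 ± 0.065 TPM and Lyz2 at 0.03 ± 0.052 TPM (SD, n = 3). The 3 erythroid markers summed to between 1.20 and 1.77 TPM. The 4 proliferation genes summed to between 3.78 and 4.99 TPM. In such bulk RNA, fewer cells of a type and less RNA per cell cannot be told apart.

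The core genes were among the most abundant messages of these cells. All 78 reached at least 1 TPM in every library, and 73 reached at least 100 TPM. Their median was 706 TPM, 22.5-fold above the median of 31.4 TPM over 9823 detected protein-coding genes, and 24 of them ranked within the 100 highest of all genes. The 86 genes together held 7.18, 10.1 and 6.84% of all TPM in libraries 1, 2 and 3, a mean of 8.05% ± 1.81 (SD, n = 3). Small-subunit genes had a median of 781 TPM and large-subunit genes 604 TPM. The log2 difference of the medians, large minus small, was -0.36, -0.21 and -0.39 in the libraries, a mean of -0.32 ± 0.10 (SD, n = 3). The subunits' levels overlapped broadly, and 19 of 46 large-subunit genes lay above the small-subunit median.

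**Figure D1:**
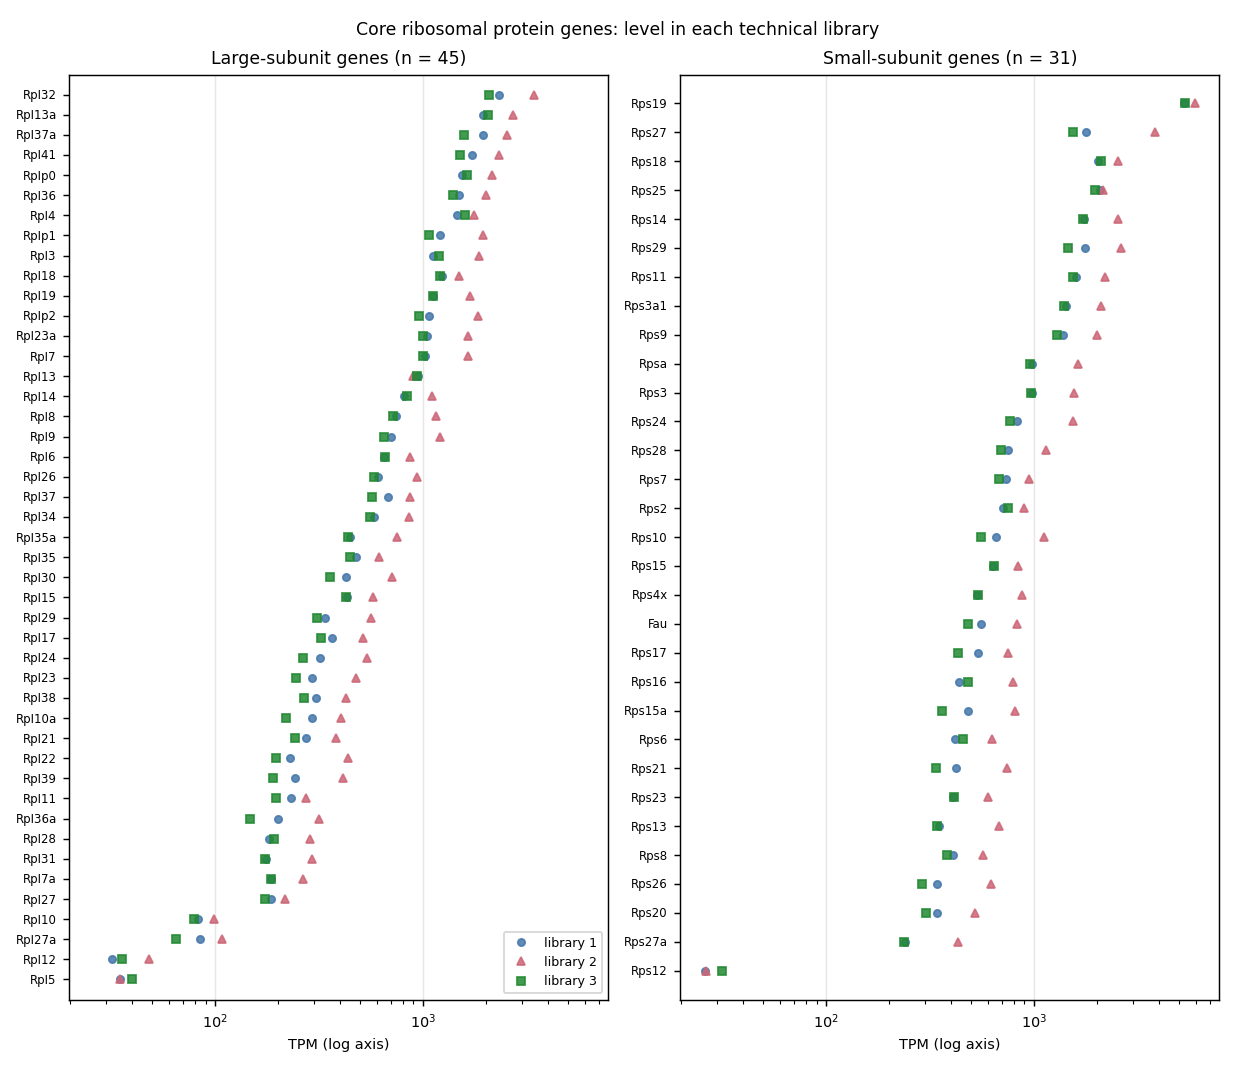
Level of 76 of the 78 core genes in TPM (x, log axis), large subunit left and small subunit right, with 1 symbol per technical library. Rpl32 and Rps19 stand at the top, Rps12, Rpl5 and Rpl12 lie at the bottom, and library 2 (triangles) is the highest library for 73 of the 76 genes drawn.

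Although nearly all of the proteins are needed in equal numbers, the messages did not have equal levels. The SD of log2 TPM among core genes was 1.47, 1.49 and 1.48 in the 3 libraries, and the 90th percentile was 9.05 ± 0.36 times the 10th (SD, n = 3). For comparison, the SD of log2 TPM was 2.08 over detected protein-coding genes. The order of members was stable between libraries: Spearman's rho over the 78 genes was 0.989 for libraries 1 and 2, 0.993 for 1 and 3 and 0.982 for 2 and 3. These points share 1 RNA source and the same annotation.

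Rps19, a small-subunit protein whose gene is mutated in Diamond-Blackfan anaemia, was the highest small-subunit gene. Its level was 5251, 5939 and 5335 TPM, a mean of 5508 ± 375 (SD, n = 3), and it ranked 7th of all genes.

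The members described next lay well below Rps19. Rpl32 had 2323, 3413 and 2085 TPM, a mean of 2607 ± 708. Rps27, which carries a zinc-finger fold, had 1771, 3814 and 1537 TPM, a mean of 2374 ± 1253. Its value in library 2 stood far above the other libraries. Rpl13a, known also for a part in translational control during inflammation, had a mean of 2236 ± 414 TPM. Rps18 had 2223 ± 272 TPM. Rps25, a protein used by some viral internal ribosome entry sites, had 2061 ± 96.6 TPM, and Rpl37a had 2023 ± 481 TPM (SD, n = 3 each). Neighbours in this order from Rpl32 to Rpl37a differed by less than the larger of their SDs.

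The stalk proteins, which recruit translation factors to the large subunit, were all abundant. Rplp0, the stalk base, had 1536, 2138 and 1620 TPM, a mean of 1764 ± 326. The acidic proteins Rplp1 and Rplp2, which bind Rplp0 as dimers, had 1412 ± 473 and 1291 ± 483 TPM. Their values overlapped with that of Rplp0 across libraries.

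Several members have a second identity. Rpsa, also known as a laminin-binding protein, had 977, 1636 and 961 TPM. Fau encodes a ubiquitin-like protein fused to a small-subunit protein and had 558, 831 and 479 TPM. Rps27a, a fusion with ubiquitin itself, had 241, 429 and 237 TPM. In each of these genes library 2 was the highest. Rack1, a signalling scaffold on the small subunit, lies outside the symbol rule but belongs to the ribosome. It had 480 ± 90.6 TPM (SD, n = 3), within the range of the core genes.

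Rps6, the small-subunit protein phosphorylated by the S6 kinases downstream of mTOR, had 419, 627 and 457 TPM, a mean of 501 ± 111. Rpl5, Rpl11 and Rpl23 can bind the p53 regulator Mdm2 when ribosome assembly is disturbed. Rpl23 had 292, 475 and 245 TPM and Rpl11 had 232, 275 and 195 TPM. Rpl5 had only 34.9, 35.0 and 39.9 TPM, although Rpl5 and Rpl11 enter the ribosome together with 5S ribosomal RNA. On this scale Rpl11 was above Rpl5 in every library.

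Means under 100 TPM were found in 5 core genes. Rps12 was lowest with 26.1, 26.5 and 31.7 TPM, followed by Rpl5 and by Rpl12 with 32.1, 48.2 and 35.6 TPM. Rpl27a had 86.0 ± 21.8 TPM and Rpl10, an X-linked gene of the late-joining large-subunit protein, had 86.9 ± 10.6 TPM. Above them came Rpl27 with 192 ± 22.1 TPM, Rpl7a with 213 ± 45.2 TPM and Rpl31 with 215 ± 67.8 TPM (SD, n = 3 each). No core gene lay between Rpl10 and Rpl27.

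Each of the 5 lowest genes had a near copy elsewhere with a higher level. Coding sequences were compared with the most abundant related entry of the annotation. Rpl5 and Gm15500, a transcribed processed pseudogene on chromosome 7, were identical over all 891 coding bases, and Gm15500 was listed at 571 ± 133 TPM. Rpl12 and Gm10275 were identical over 495 bases, with 1006 ± 402 TPM on Gm10275. Rpl27a and Gm7536 were identical over 444 bases, with 746 ± 249 TPM on Gm7536. Rpl10 and Rpl10-ps3 were identical over 642 bases, with 444 ± 123 TPM on Rpl10-ps3. Rps12 and Rps12l1 were identical over 396 bases, with 330 ± 175 TPM on Rps12l1 (SD, n = 3 each). The first 90 coding bases of the Rps12 pair and of Rpl13 with its copy Gm12918 are printed because they show what the quantification had to divide. A capital would mark a base that differs from the gene, and there is none.
Rps12 (coding region within chr10:23785214-23787007, minus strand): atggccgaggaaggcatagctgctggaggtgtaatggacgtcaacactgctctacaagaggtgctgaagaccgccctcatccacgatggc
Rps12l1 (entry at chr7:56014016-56014414, plus strand): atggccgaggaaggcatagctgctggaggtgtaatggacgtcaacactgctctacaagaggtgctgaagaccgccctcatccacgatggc
Rpl13 (coding region within chr8:123102659-123105199, plus strand): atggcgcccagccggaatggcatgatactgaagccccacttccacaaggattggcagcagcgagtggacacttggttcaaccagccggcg
Gm12918 (entry at chr4:10848420-10849055, plus strand): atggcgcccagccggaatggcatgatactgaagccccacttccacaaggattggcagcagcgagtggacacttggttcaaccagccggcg
Rpl13 and Gm12918 were identical over all 633 coding bases. Gm12918 was listed at 3907, 4445 and 4122 TPM, and Rpl13 at 942, 893 and 934 TPM. The pseudogene entry was thus the higher of the pair in every library.

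The same was seen across the set. For 20 of 78 core genes, at least 1 pseudogene, "-ps" or Gm entry outside the 86 genes held the whole coding sequence without a change. These 20 genes had a median of 319 TPM on their own entries, against 795 TPM for the other 58, and all 5 genes under 100 TPM were among the 20. With copy entries added, the medians were 1045 and 1170 TPM. Rps27, whose coding bases are identical to those of its paralog Rps27rt, is counted among the 58. In 16 of the 20, the identical entries together were listed above the gene. The exceptions were Fau, Rps28, Rps29 and Rpl41. Rpl41, which encodes a very short peptide, had 1844 ± 416 TPM (SD, n = 3) while its 3 identical entries were at 0.

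A wider count took non-overlapping pseudogene and "-ps" entries that shared at least 1 stretch of 50 bases with a member's most abundant transcript, and protein-coding entries named Gm that shared at least 50 stretches. This found 1091 copy entries, 1076 of them with a pseudogene biotype, for 82 of the 86 genes. Most were silent or nearly so: 148 reached 1 TPM in every library and 42 reached 100 TPM. Copy entries carried 2.51, 3.73 and 2.36% of all TPM, or 26.2% ± 0.65 of the summed TPM of members and copies (SD, n = 3). Besides Gm12918, high entries were Rps23-ps1 with 1880 ± 608 TPM, Gm2000, a protein-coding entry related to Rpl35, with 1439 ± 177 TPM, and Rps6-ps4 with 1417 ± 354 TPM (SD, n = 3). The Rps6 gene itself was at 501 TPM, so gene and copies summed to 1925 ± 464 TPM.

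With copies added, the core genes lay closer to each other. The SD of log2 levels among them fell from a mean of 1.48 to 0.93, and no core gene remained under 100 TPM. Rps12 with its copies came to 431 ± 211 TPM, Rpl5 to 608 ± 132 TPM and Rpl12 to 1055 ± 411 TPM (SD, n = 3). The rank order also changed: Spearman's rho between levels with and without copies was 0.765 over 78 genes. Whether the copies themselves are transcribed in these cells was not tested.

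**Figure D2:**
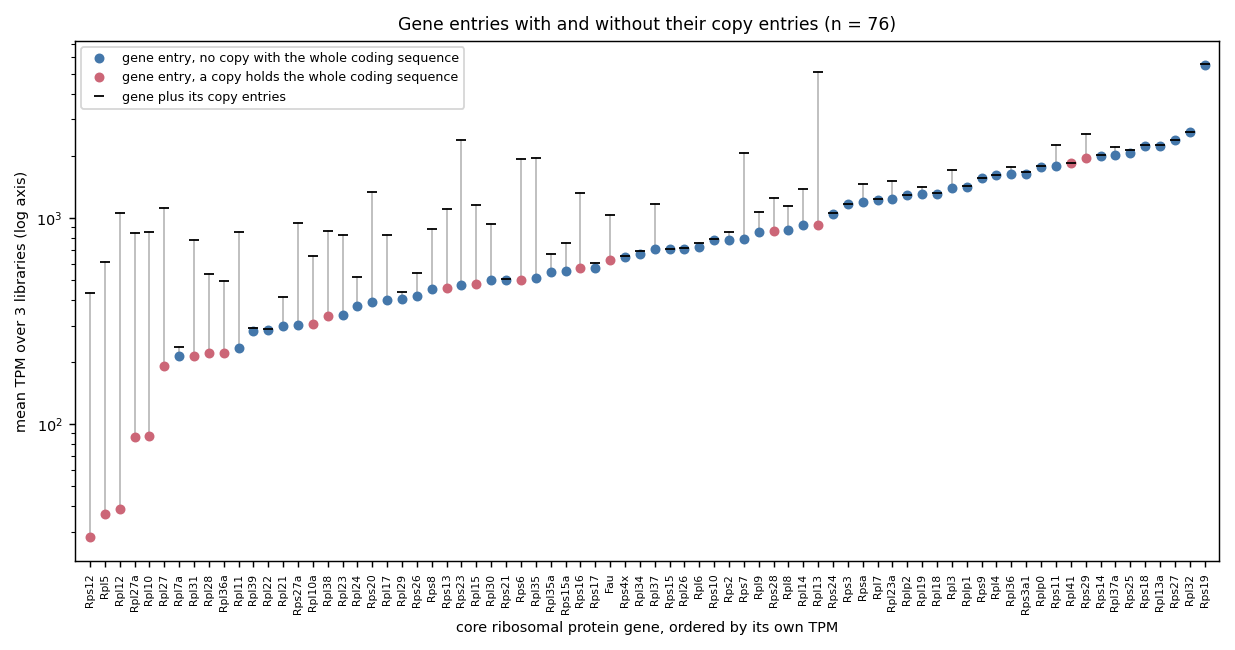
Mean TPM of 76 core genes (points, log axis) and of the gene plus its copy entries (dashes), with genes ordered by their own level. Red points mark the 20 genes for which a copy entry outside the 86 genes holds the whole coding sequence. The 5 points below 100 TPM are all red.

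A median of 64.9% of the 50-base stretches in a core transcript also occurred in some other gene's transcript. The share reached 98.6% in Rps27, and 55 of 78 genes shared at least 50% of their stretches.

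The 8 paralogs fell into abundant, low and undetected genes. Rps27rt, a copy of Rps27 without introns on chromosome 9, was the most abundant, with 2338, 2812 and 2049 TPM, a mean of 2400 ± 385. Its 252 coding bases were identical to those of Rps27, and 296 of its 325 stretches of 50 bases also occurred in Rps27. Rps27l, a p53-responsive gene, differed from Rps27 at 60 of 252 aligned coding bases and was at 48.0, 48.7 and 50.1 TPM. The first 90 coding bases show the contrast, with capitals where a base differs from Rps27.
Rps27 (coding region within chr3:90212728-90213615, minus strand): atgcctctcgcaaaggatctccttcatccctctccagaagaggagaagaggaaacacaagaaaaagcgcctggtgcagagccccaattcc
Rps27rt (coding region at chr9:114982456-114982707, minus strand): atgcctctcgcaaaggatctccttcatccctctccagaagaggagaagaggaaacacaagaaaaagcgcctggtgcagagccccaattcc
Rps27l (coding region within chr9:66946175-66949338, plus strand): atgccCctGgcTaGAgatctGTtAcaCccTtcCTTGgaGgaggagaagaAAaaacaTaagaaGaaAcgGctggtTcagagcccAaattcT
Rps27l holds 24 differing bases in this stretch and Rps27rt holds none. The log2 ratio of Rps27rt to Rps27 was 0.40, -0.44 and 0.42 in the libraries and so changed sign in library 2. Their division between entries is uncertain. Their sum was 4109, 6627 and 3585 TPM.

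Rpl22 and Rpl22l1 are of particular interest in T cells, since loss of Rpl22 in mice blocks the development of alpha-beta T cells while most other tissues are spared, and Rpl22l1 can take its place in the ribosome. Rpl22 had 228, 436 and 195 TPM, and Rpl22l1 had 200, 301 and 195 TPM. Their coding sequences were 72.7% identical over 363 aligned bases, and no stretch of 50 bases was shared between them. The log2 ratio of Rpl22l1 to Rpl22 was -0.19, -0.53 and -0.0019, a mean of -0.24 ± 0.27 (SD, n = 3), so the difference was within the spread of libraries. By summed counts per length, Rpl22 was 1.23 times Rpl22l1, with a 95% exact Clopper-Pearson interval of 1.18 to 1.29 that covers counting error only. Rpl22l1 accounted for 44.8% of the pair. However, a non-coding processed transcript held 73.6% ± 4.06 of Rpl22l1, while a protein-coding transcript held 90.8% ± 0.27 of Rpl22 (SD, n = 3). Of the 50-base stretches in that Rpl22l1 transcript, 68.9% also occurred in other genes' transcripts.

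Rpl36al, an autosomal relative of X-linked Rpl36a, was also near its parent. It had 235, 280 and 225 TPM, and Rpl36a had 200, 317 and 147 TPM. The log2 ratio was 0.23, -0.18 and 0.61, a mean of 0.22 ± 0.40 (SD, n = 3), which changes sign between libraries. With copies added to Rpl36a and Rpl36al, the mean ratio was -0.73.

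Rpl7l1, a nucleolar relative of Rpl7, had 73.4, 56.1 and 71.0 TPM beside 1019, 1644 and 1001 TPM for Rpl7. Per length, Rpl7 was 18.8 times higher by summed counts (95% exact interval of 18.2 to 19.5, counting error only). Rpl39l, known from the testis, had 0.23, 0.36 and 0.78 TPM from 8 counts in all. Rpl10l, the testis counterpart of Rpl10, had 1 count, in library 2. Rpl3l, a gene of heart and skeletal muscle, had 0 counts in all libraries, and against a floor of 3 counts over the group Rpl3 was at least 13545-fold higher per length. The exact 95% lower limit of this ratio was 11015-fold, for counting error only. At this depth the expression of Rpl10l and Rpl3l was not detectable. In the older count table described further on, which is not corrected for length, the log2 ratio of Rpl7l1 to Rpl7 was only -0.076. There the ratio of Rps27rt to Rps27 was -5.31, that of Rpl22l1 to Rpl22 -1.0, that of Rpl36al to Rpl36a 4.07 and that of Rps27l to Rps27 1.31. The division within these pairs thus differed between the tables.

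**Figure D3:**
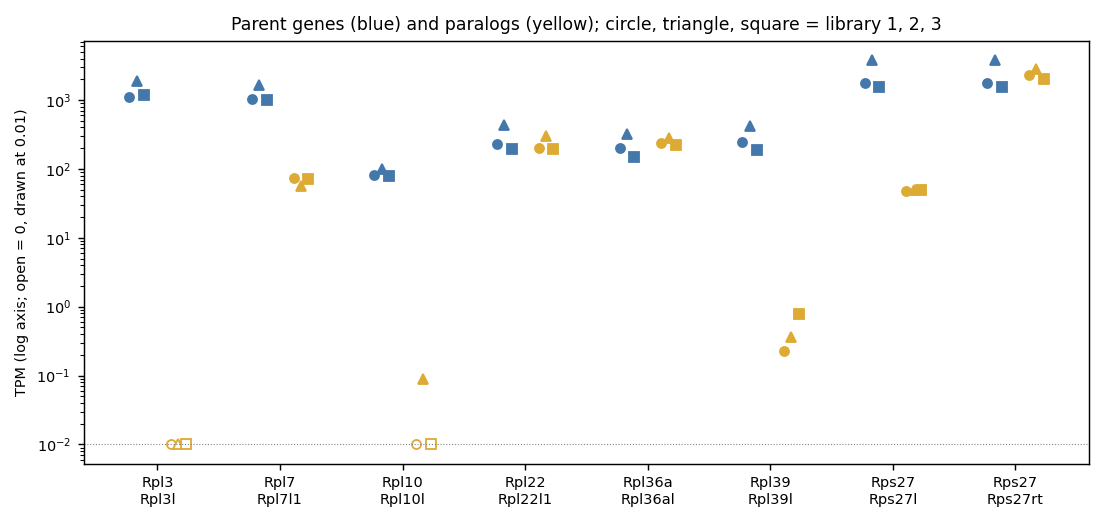
TPM (log axis) of each parent gene (blue) and paralog (yellow), with 1 symbol per library and values of 0 drawn open at 0.01. Rps27rt, Rpl22l1 and Rpl36al overlap their parents, Rpl7l1 and Rps27l lie below them, and Rpl3l, Rpl10l and Rpl39l are at or near 0.

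The transcript tables divide each gene between annotated isoforms. The most abundant transcript held a median of 82.5% of a core gene's transcripts, at least 90% in 29 genes and under 50% in 8. In 59 of 78 genes this transcript was of the protein-coding type. Rpsa was an exception among abundant genes: a transcript annotated for nonsense-mediated decay held 87.9% ± 2.71 of its TPM. For Rps18 a non-coding processed transcript held 76.7% ± 0.23 (SD, n = 3).

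Genes with abundant identical copies were again prominent among those without a leading transcript. In Rpl10 the protein-coding Rpl10-201 held 24.2% ± 4.51 and the retained-intron Rpl10-203 held 19.8% ± 2.79. In Rpl5 the 3 leading transcripts were all of the retained-intron type, with 38.4, 29.8 and 18.9%. In Rpl12 a nonsense-mediated decay transcript held 38.4% ± 11.7 and a retained-intron transcript 26.7% ± 10.1. Rpl11 divided between Rpl11-201 with 31.2% ± 4.86 and Rpl11-204 with 24.3% ± 3.81 (SD, n = 3). These 3 transcripts held most of what is listed for Rpl5, while its intact coding sequence is also held by Gm15500. Rpl10a was also among the 6 genes with the lowest leading share, at 46.7% ± 5.41.

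On most of these genes the technical libraries differed by more than counting noise. Rounded expected counts were compared by a chi-square test of homogeneity with library sizes scaled by TMM (trimmed mean of M values), adjusted by Benjamini-Hochberg over the 13090 genes averaging 10 counts or more. At an adjusted p below 0.05, 76 of 78 core genes were called different, against 40.0% of all genes tested. The same 76 of 78 were called and highest in library 2, against 18.2% of all genes tested. The median log2 ratio of library 2 to library 1 was 0.67 over core genes (1.59-fold) and 0.0028 over all genes tested. For library 2 to library 3 it was 0.77, and for library 3 to library 1 it was -0.06. The test treats an expected count as a plain count, so it leaves out the error of dividing shared reads. It also passes smaller differences at higher counts, so the shares called depend on level, here and in the lists below. With a minimum mean of 100 counts, 77 of 78 core genes and 50.2% of 9135 genes in all were called.

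The difference in library 2 was not of 1 size. Rps27 differed most, with scaled counts of 5118, 11923 and 4492, a 2.65-fold range. Its division from Rps27rt is uncertain, and the summed scaled counts of both were 12459, 21516 and 10970, a 1.96-fold range. Rps15a, Rps21, Rpl39, Rpl36a and Rps26 followed with ranges of 2.39-, 2.37-, 2.34-, 2.32- and 2.31-fold. At the other end, Rpl13 ranged 1.03-fold (6702, 6932 and 6714 scaled counts, adjusted p = 0.156 by the chi-square test) and Rpl5 ranged 1.15-fold (adjusted p = 0.336). On their own entries, these were the 2 core genes that did not pass. Both are among the 20 core genes with an identical coding sequence elsewhere, and the others of these 20 passed. With copies added, Rpl5 had 528, 760 and 536 TPM, and Rpl13 had 4864, 5355 and 5068 TPM. The test was not run on these sums. Rps25 (1.22-fold), Rps19 (1.22-fold) and Rpl27 (1.29-fold) passed with small ranges. Rps19 thus combined a high level with a small range.

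Spearman's rho between gene length and the log2 ratio of library 2 to 1 was -0.042 over 78 core genes, given as a description. Other protein-coding genes of up to 1000 bases had a median log2 ratio of 0.046, and 311 of 967 (32.2%) were called, against 40.0% of all genes tested. The copy entries moved with the genes: 82 of 151 tested were called and highest in library 2, against 18.2% of all genes tested, with a median log2 ratio of 0.63.

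Other genes of the pathway were read from lists chosen by role. All 18 other messages known to carry TOP motifs were called and, by TMM-scaled counts, were highest in library 2, against 18.2% of all genes tested. Their median log2 ratio of library 2 to library 1 was 0.49. Among them Eef1a1, the factor that brings aminoacyl-tRNA to the ribosome, had 3383, 5442 and 3191 TPM. Tpt1, an abundant translationally controlled protein, had 1133, 1744 and 1097 TPM, and Eef2, the translocation factor, had 674, 888 and 635 TPM. Nap1l1, the lowest of the list, had 47.8, 54.8 and 56.7 TPM, a mean of 53.1 ± 4.69 (SD, n = 3). By TPM it was therefore highest in library 3.

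Mitochondrial ribosomal protein genes, the other ribosome of the cell, lay near the median of all genes. Of 78, 18 (23.1%) were called, against 40.0% of all genes tested, and 10 were called and highest in library 2, against 18.2%, with a median log2 ratio of 0.035. They were also much lower, with a median of 41.0 TPM, led by Mrpl33 with 124 ± 18.2 TPM. Among 39 genes of RNA polymerase I and ribosome assembly, 25 (64.1%) were called, against 40.0% of all genes tested. Of these, 15 were highest in library 3 and 3 in library 1, against 1866 and 989 of the 13090 genes tested in all. The 7 highest in library 2 are a share near the 18.2% of all genes tested. The median log2 ratio over the 39 genes was -0.04. Nop56 and Ncl, which act in the nucleolus, led with 459 ± 68.2 and 451 ± 21.3 TPM. Of 17 genes that control TOP messages, 14 (82.4%) were called, against the same 40.0%, and 6 were called and highest in library 2, against 18.2%. Larp1 had 94.2, 98.6 and 90.9 TPM, Mtor 23.9, 22.1 and 18.4 TPM and Eif4ebp1, a translation repressor, 6.12 ± 0.12 TPM. Of the 8 naive T cell markers, 7 (87.5%) were called, against 40.0% of all genes tested. Among these markers, 4 were called and highest in library 2, against 18.2%. Their median log2 ratio of library 2 to library 1 was 0.049.

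**Figure D4:**
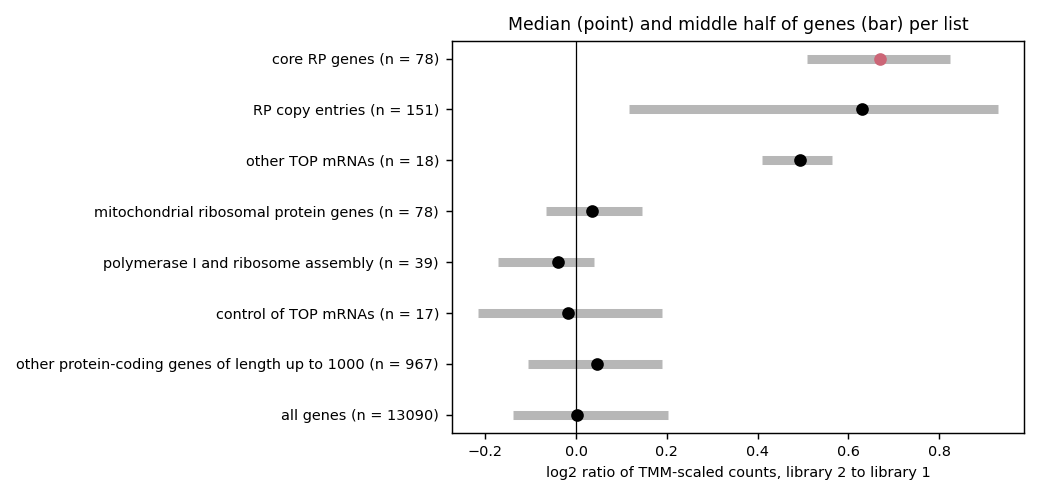
Log2 ratio of TMM-scaled counts of library 2 to library 1 (x) for 8 gene lists, with the median as a point and the middle 50% of genes as a bar. Core ribosomal protein genes, their copy entries and the other TOP messages are shifted to the right, and the other lists are centred near 0.

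With library 2 left out, 38 of 78 core genes were called between libraries 1 and 3, against 14.7% of all genes tested. The labels give the 3 libraries the same source, fragmentation method and size range. What sets library 2 apart was not tested.

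The older count table for the same libraries, made on an earlier annotation, did not show the difference. There, 5 of 75 core genes tested were called, against 19.0% of all genes tested, and the median log2 ratio of library 2 to 1 was -0.0015. For Rpl4, a long member with few shared stretches, the unscaled older counts were 2050, 2083 and 2065, beside unscaled expected counts of 18204, 28893 and 24005. Scaled by TMM, the expected counts of Rpl4 were 20484, 27198 and 22884. Rpl22 kept a higher count in library 2 in the older table, with 279, 408 and 291.

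The older counts levelled off at high expression. Over genes with at least 200 exon bases, the highest older count per exon base was 1.89, while expected counts reached 58.9 per base. Among 549 genes with 1 to 3 expected counts per base the median was 0.391 older counts per base, and among 38 genes with 10 to 30 it was 0.517. A core gene had a median of 2.08 expected counts per base, against 0.126 over detected genes. The core genes' own older counts had a median of 0.0436 per base and reached at most 1.03, so most lay below the median of all genes with like expected counts. The older counts were a median of 3.09% of the expected counts for core genes and 44.5% over all genes tested. For the 3 core genes with at most 10% of stretches shared the median was 18.5%, and for the 55 with at least 50% shared it was 2.14%. How the older table treated repeated and shared reads is not given in the sources used here and was not tested.

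**Figure D5:**
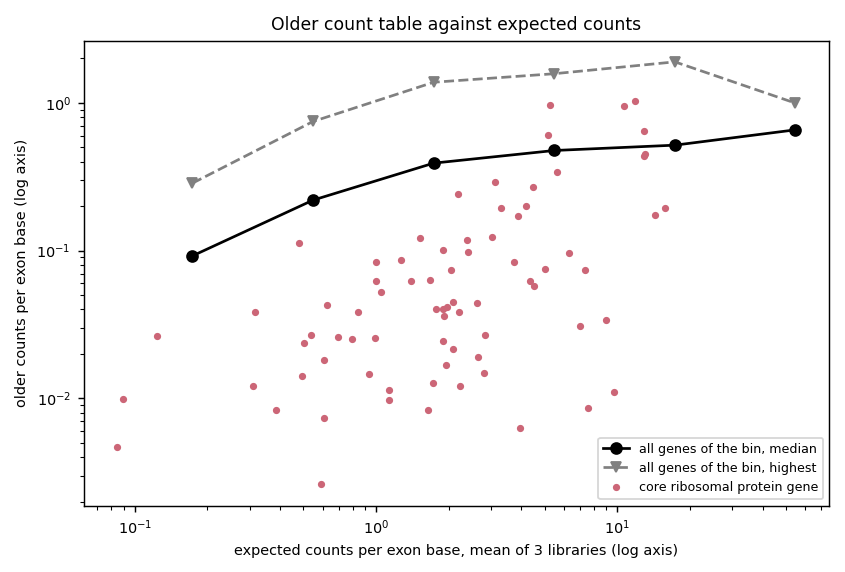
Older counts per exon base (y, log axis) against expected counts per exon base (x, log axis), as means over 3 libraries. Black and grey symbols give the median and the highest of all genes per range of expected counts, which rise less steeply above about 1 expected count per base, and red points are 76 core genes, most of which lie below the median.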

How the data were processed

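The authors deposited, for each of 3 technical libraries, gene and transcript tables with expected counts, TPM and isoform percent (GENCODE M21, mm10), and an older table of whole-number counts (GENCODE M4), as the notes beside the deposited files state. No source used here names the aligner or the counting tools. Length minus effective length was 49 in the deposited tables, so stretches of 50 bases were compared. Entries that name no gene held 0.247, 0.200 and 0.325% of expected counts and were left out of tests.

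Expected counts were rounded and library sizes scaled with TMM (edgeR 4.0.16, R 4.3.3). DESeq2 1.42.0 size factors, library totals, count minimums of 1 and 100, posterior mean TPM and each library left out served as alternatives. A chi-square test (scipy 1.17.1) was applied across all genes, after a check on simulated data. Log2 TPM used a pseudocount of 0.1. Coding sequences were aligned with Biopython 1.88.

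Members and lists were chosen with earlier results of these data known. Genes named in the text are the 8 highest and 8 lowest core genes, all paralogs, genes with named roles, the 6 most and 6 least variable between libraries and the 6 with the lowest leading transcript share. Rpl4, Rpl41, Rps28, Rps29, Larp1, Mtor, single copy entries and the coding sequence comparison were added after values were seen. Of other lists, the 4 highest and the lowest could be named. A few genes that this rule would name are not reported here; they stay in the counts, medians and tests, and 2 core genes are not drawn.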

Additional observations from a re-analysis of the deposited data

How the results depend on the processing

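No paired analysis was possible because the 3 libraries form 1 group. Adding copy entries, an alternative chosen after seeing the data, moved the median of core genes from 706 to 1107 TPM (large subunit 1061, small subunit 1209), the SD of log2 levels to 0.93 and the share of all TPM from 8.05 to 10.9%. Expected counts without length correction gave a large-minus-small difference of -0.45, an SD of 1.47 and a share of 2.73%. Older counts gave -0.42, 1.94 and 0.322%. Posterior mean TPM gave an SD of 1.45. In the older counts, 5 core genes and 1898 genes in all were called, the median log2 ratio of library 2 to 1 turned to -0.0015 and that of library 2 to 3 fell to 0.13, and Rps27l was above Rps27 with a log2 ratio of 1.31. Without length correction, these counts also moved the log2 ratio to the parent to -5.31 for Rps27rt, 4.07 for Rpl36al, -1.0 for Rpl22l1 and -0.076 for Rpl7l1. With each library left out in turn, 38 to 76 core genes and 1903 to 4875 genes in all were called, the lowest without library 2. The cause was not tested. TMM, DESeq2 size factors, library totals and the count minimums gave 76 or 77 called core genes. The share of all genes called was 23.1% with a minimum of 1 count and 50.2% with a minimum of 100. Depth limits Rpl3l, Rpl10l and Rpl39l, which have 8 counts or fewer.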
